A study of Mus musculus with 6 samples.

Results

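The genes described here were 8 neurotrophic ligands and receptors, *Bdnf*, *Ntf3*, *Gdnf*, *Ngfr*, *Ntrk2*, *Ntrk3*, *Sort1* and *Gfra1*, measured in NIH/3T3, an immortal fibroblast line made from mouse embryos. They were chosen by name, with the counts of these libraries known, out of 54752 gene identifiers, of which 54723 matched a gene symbol. Their own values are therefore a description. Tests are given for genes of the same pathways outside the 8, in lists that were likewise written with earlier results of these data known. RNA-seq after removal of ribosomal RNA gave counts of reads on genes for 6 libraries, 2 in each of 3 groups, all harvested after 72 h. The vehicle group received PBS. A further group received TGF-β1 at 1 ng/ml with DMSO (the DMSO libraries), and the last group received TGF-β1 at 1 ng/ml with 5 μM BI6727, an inhibitor of the mitotic kinase PLK1 (the BI6727 libraries). No library held DMSO without TGF-β1, so the effects of TGF-β1 and DMSO cannot be told apart. The study's methods speak of biological replicates, but give their number differently from the labels in one place, and no source used here says that they were separate cultures. The p-values therefore measure the spread between these libraries.

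Neurotrophins are secreted growth factors best known for keeping neurons alive. BDNF, NT-3 (*Ntf3*) and NT-4 (*Ntf5*) are cut from precursors. The mature forms signal through the TRK receptor tyrosine kinases, such as TRKB for BDNF (*Ntrk2*) and TRKC for NT-3 (*Ntrk3*). The precursors bind the p75 receptor (*Ngfr*) together with sortilin (*Sort1*) or a SORCS relative. GDNF is a distant member of the TGF-β superfamily that binds the membrane-anchored coreceptor GFRα1 (*Gfra1*) and then the kinase RET, or the adhesion molecule NCAM (*Ncam1*) in cells without RET. Fibroblasts are known as a source of neurotrophic factors for nerves in peripheral tissue.

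*Bdnf* and *Gdnf* were the ligands among the 8 with counts in every library, and each has more than 1 start site in RefSeq. *Bdnf* had 7 starts and *Gdnf* had 2. The 250 bases ahead of 3 of these starts are shown because the deposited counts are sums over all transcripts of a gene, so that none could be assigned to a start. The sequences are from RefSeq (GRCm38.p6, the mm10 genome), 5′ to 3′ on the plus strand. Capitals mark TCACGTCA, a sequence of the kind bound by CREB family factors, and CAGAC, the core of the SMAD-binding CAGA box, or its reverse complement.
Bdnf (chr2:109692186-109692435): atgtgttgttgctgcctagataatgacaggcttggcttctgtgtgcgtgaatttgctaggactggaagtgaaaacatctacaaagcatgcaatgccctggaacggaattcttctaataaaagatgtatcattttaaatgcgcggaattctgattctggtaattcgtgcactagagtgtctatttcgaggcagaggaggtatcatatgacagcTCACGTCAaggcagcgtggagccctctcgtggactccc
Gdnf, upstream start (chr15:7809798-7810047): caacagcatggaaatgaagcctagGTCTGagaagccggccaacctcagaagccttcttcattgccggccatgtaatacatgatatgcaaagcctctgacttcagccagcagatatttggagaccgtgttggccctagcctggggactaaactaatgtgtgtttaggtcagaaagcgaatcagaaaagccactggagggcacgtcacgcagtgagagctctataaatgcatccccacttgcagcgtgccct
Gdnf, downstream start (chr15:7813477-7813726): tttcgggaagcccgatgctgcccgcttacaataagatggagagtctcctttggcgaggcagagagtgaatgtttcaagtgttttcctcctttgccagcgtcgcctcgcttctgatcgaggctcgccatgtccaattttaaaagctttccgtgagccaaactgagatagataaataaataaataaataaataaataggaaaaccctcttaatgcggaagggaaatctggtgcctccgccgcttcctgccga
The *Bdnf* window held TCACGTCA 38 bases ahead of the start, a match found on either strand in 115 of 32851 promoters of this length (0.35%). This window was picked because it was the one of the 7 *Bdnf* windows with that motif, so the share says nothing of how unusual *Bdnf* is. Of the other 6 windows, 4 held CAGAC and 2 held neither motif. The upstream *Gdnf* window held CAGAC on the opposite strand, which 42.2% of all promoters contain on either strand, and the downstream window held neither motif. The upstream *Gdnf* start lies 798 bases ahead of the first base counted for the gene, so reads from that first stretch were not in its count. A match is a description of the letters and not evidence of binding.

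The libraries held 18362378 to 24452153 counts on genes, with 18911 to 19891 genes detected in each. Of all genes, 14604 passed a filter on low counts and were tested. The genes taken as signs of a TGF-β1 response moved upward: *Acta2* (smooth muscle actin), *Ccn2* and *Smad7* were called higher in the DMSO libraries than in vehicle, with log2 fold changes of 2.31, 3.66 and 1.24, and *Tagln* was not called at 1.71 (adjusted p = 0.0637, edgeR). Genes on the opposite strand overlap 67.9% of the exonic length of *Tagln* and 23.2% of that of *Ccn2*, and no gene overlaps *Acta2* or *Smad7*. All 8 fibroblast markers were present, at 7778 to 10420 summed CPM in a library (CPM are counts scaled to a common library size by edgeR's TMM method). The defining Schwann cell marker *Sox10* was at 0 in all 6 libraries, and neuronal markers summed to 0.661 to 2.33 CPM. In bulk RNA, fewer cells of a type and less RNA per cell cannot be told apart. The replicates with the widest spread were the DMSO libraries, where the log2 difference between replicates had an SD over genes of 0.563, against 0.447 for vehicle and 0.449 for BI6727. The gap was wider in a chi-square of the replicates' counts against a split by library total. Per degree of freedom it was 57.6 for DMSO, 6.23 for vehicle and 5.34 for BI6727. Low counts came in even numbers more often than not. Between 59.4% and 60.2% of the counts from 1 to 12 in a library were even, and whether 2 counts were 2 independent fragments was not tested.

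Of the 8 genes, 4 were transcribed at a level that could be compared and 4 were at or near the floor. Levels between genes are given as RPKM, the normalized CPM per kilobase of exons. *Bdnf* was highest, at 10.2 ± 0.336 RPKM in vehicle (mean ± SD, n = 2), followed by *Gdnf* at 7.41 ± 0.588, *Gfra1* at 1.74 ± 0.0369 and *Sort1* at 1.33 ± 0.0903. The same order held in every library, and in no group did the ranges of neighbours in this order overlap. These 4 genes passed the filter in all 6 libraries and not through one group alone. The values per length rest on the summed exons of all annotated transcripts and so understate the level of a gene with many alternative ends.

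**Figure D1:**
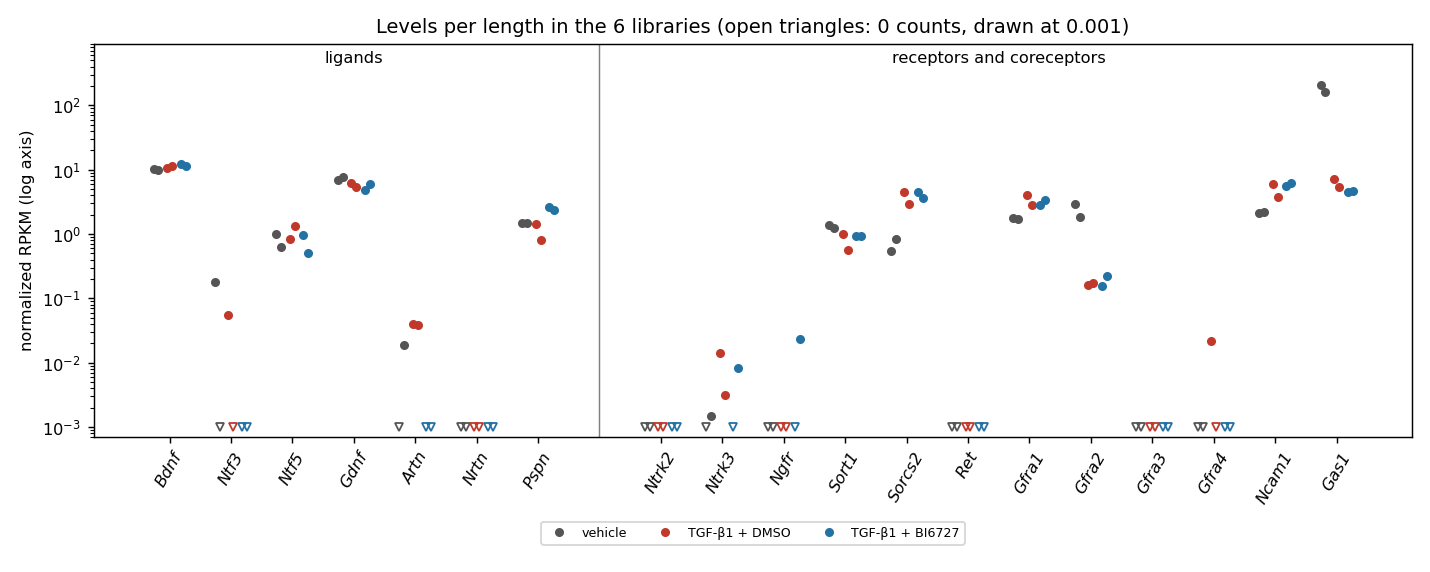
Normalized RPKM on a log axis for the 8 genes and genes related to them, ligands left and receptors right. Each point is 1 library, coloured by group, and open triangles at the bottom are libraries with 0 counts. *Bdnf* and *Gdnf* stay within a narrow band at the top of the ligands shown, and *Ntrk2*, *Ntrk3*, *Ngfr* and *Ret* lie at the bottom.

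BDNF is the ligand of TRKB. *Bdnf* (ENSMUSG00000048482.14, mm10 chr2:109674700-109727007, plus strand) had 1280 and 1384 counts in vehicle, 1361 and 1493 with DMSO, and 1382 and 1709 with BI6727. After normalization these were 64.7 and 61.8 CPM in vehicle, 65.0 and 70.2 with DMSO, and 76.1 and 69.9 with BI6727. The vehicle libraries were the lowest, only just below the first DMSO library, and the DMSO and BI6727 ranges overlapped. *Bdnf* differed from vehicle by a log2 fold change of 0.10 ± 0.111 (SE) in the DMSO libraries, with a 95% interval of -0.16 to 0.35. This interval corresponds to 0.897 to 1.27 times the vehicle level, so a change by the 2-fold criterion lies outside it. The value against vehicle was 0.21 ± 0.111 in the BI6727 libraries. An antisense gene, *Gm45346*, overlaps 14.4% of the exonic length, and the strand setting of the counting is not given in the sources used here.

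GDNF is the ligand of GFRα1. *Gdnf* (ENSMUSG00000022144.4, mm10 chr15:7810846-7837575, plus strand) had 508 and 644 counts in vehicle, 480 and 419 with DMSO, and 324 and 538 with BI6727. The normalized values were 25.7 and 28.7 CPM, 22.9 and 19.7 CPM, and 17.8 and 21.99 CPM. Both vehicle libraries lay above all 4 libraries with TGF-β1. The log2 difference from vehicle was -0.35 ± 0.16 (SE) with DMSO and -0.45 ± 0.16 with BI6727, which is 1.28-fold and 1.36-fold lower. The 95% interval of the first ran from -0.72 to 0.01 and that of the second from -0.81 to -0.08. No other gene overlaps its exons.

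*Ntf3* (mm10 chr6:126101412-126166910, minus strand) encodes NT-3, the main ligand of TRKC. It had 6 counts in the first vehicle library, 2 in the first DMSO library and 0 in the other 4. At these depths 3 counts correspond to 0.123 to 0.165 CPM, so only a single vehicle library, at 0.303 CPM, lay above that floor. *Ntf3* was not tested, and a difference between groups was not detectable at this depth.

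**Figure D2:**
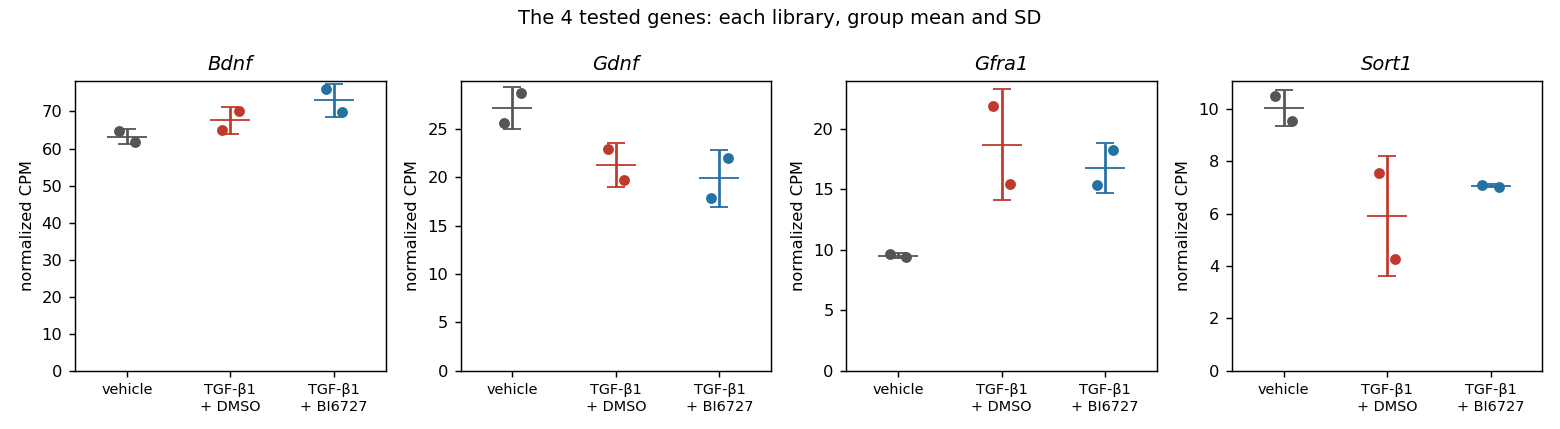
Normalized CPM of the 4 tested genes in each library (points), with the mean and SD of each group (line and bar, n = 2), on axes that start at 0. The vehicle points of *Gdnf* and *Sort1* lie above all libraries with TGF-β1, those of *Gfra1* lie below them at 9.66 and 9.37 CPM, and the DMSO points of *Gfra1* and *Sort1* are spread the most.

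Of the receptors for these ligands, *Ntrk2*, *Ntrk3*, *Ngfr* and *Ret* were nearly absent from the counts. *Ntrk2* (mm10 chr13:58806569-59133970, plus strand), the BDNF receptor, had 0 counts in all 6 libraries, which allows at most 0.00636 to 0.00856 RPKM for 3 counts, counting error only. *Ngfr* (mm10 chr11:95568818-95587735, minus strand), the p75 receptor, had 2 counts, both in the second BI6727 library. *Ntrk3* (mm10 chr7:78175959-78738012, minus strand), the NT-3 receptor, had 0 and 1 counts in vehicle, 9 and 2 with DMSO, and 0 and 6 with BI6727, 18 in all, on exons of 30170 bases. Its highest value was 0.0142 RPKM, which is below the level of *Sort1* in every library, and the first DMSO and second BI6727 libraries were the ones above 3 counts. The GDNF signalling kinase gene *Ret* had 0 counts in the 6 libraries. None of these genes was tested, and no fold is given. The floors limit the share of RNA and not the protein.

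*Gfra1*, the GDNF coreceptor, lay higher in the libraries with TGF-β1. It is on the minus strand (ENSMUSG00000025089.15, mm10 chr19:58235604-58455909). The counts were 191 and 210 in vehicle, 459 and 329 with DMSO, and 278 and 446 with BI6727. The normalized values were 9.66 and 9.37 CPM in vehicle, 21.9 and 15.5 with DMSO, and 15.3 and 18.2 with BI6727. All 4 libraries with TGF-β1 lay above both vehicle libraries, and the DMSO and BI6727 ranges overlapped. The log2 difference from vehicle was 0.97 ± 0.201 (SE; 1.96-fold, 95% interval 1.43 to 2.70) with DMSO. It was 0.82 ± 0.202 (1.77-fold, 1.28 to 2.43) with BI6727. The first value lay just outside both limits of a call, an adjusted p under 0.01 (0.0108, edgeR) and a fold change above 2. It was inside them at 1.04 on the log2 scale once each library's trend on gene length was removed, and at 1.22 without the second DMSO library. Without the first DMSO library it was 0.71. For the same comparison, DESeq2 missed the fold limit alone (0.99, adjusted p = 0.000323). So did edgeR with a filter of 10 counts in total (adjusted p = 0.00873) or of 1 count (1.44e-05). Both limits were missed with the filter of the study's methods (adjusted p = 0.0142, edgeR), a replicate block (0.0196) and just the compared groups (0.025). The antisense gene *Gm16277* overlaps 7.6% of its exonic length.

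*Sort1*, which encodes the sorting receptor sortilin, lay lower in the libraries with TGF-β1. It is on the plus strand (ENSMUSG00000068747.14, mm10 chr3:108284082-108361511). The counts were 208 and 214 in vehicle, 158 and 91 with DMSO, and 129 and 172 with BI6727. The normalized values were 10.5 and 9.55 CPM in vehicle, 7.54 and 4.28 with DMSO, and 7.10 and 7.03 with BI6727. The second DMSO library was the lowest of the 6, and the other 3 libraries with TGF-β1 were close to each other. The log2 difference from vehicle was -0.76 ± 0.262 (SE, 95% interval -1.36 to -0.16) with DMSO and -0.50 ± 0.259 (-1.1 to 0.09) with BI6727. The first of these turned on one library, since it was -1.22, and past the threshold, without the first DMSO library and -0.40 without the second. *Sort1* lies below the 10 CPM filter of the study's methods and was tested here only because a lower filter was used. The antisense gene *Gm12523* overlaps 4.47% of its exonic length.

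By the call rule, an adjusted p under 0.01 (edgeR's quasi-likelihood test, Benjamini-Hochberg over all genes) and a fold change above 2, none of the 4 tested genes was called in any of the 3 comparisons. DESeq2 also called none. At an unadjusted p under 0.05 there were 2 of 4 between DMSO and vehicle, 0 between BI6727 and DMSO, and 2 between BI6727 and vehicle, while 5137, 1041 and 5173 of all 14604 genes, in that order, were under it. Over all 14604 genes, 5.98% were called between DMSO and vehicle (402 higher and 472 lower) and 6.22% between BI6727 and vehicle. Between BI6727 and DMSO edgeR called 0 genes (0%), and DESeq2 called 15, all lower. The groups did not overlap for 4 of 4 genes between DMSO and vehicle and between BI6727 and vehicle, with *Bdnf* and *Gfra1* higher and *Gdnf* and *Sort1* lower in both. Such separation held for 60.5% of all genes in the first and 71.6% in the second. These comparisons share the vehicle libraries, and the genes were chosen with these values known, so nothing is read from the counts. The median log2 fold change of the 4 genes was -0.13 and -0.12 in them, beside -0.01 and 0.00 over all genes.

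Between the BI6727 and DMSO libraries, which both received TGF-β1, the groups overlapped for all 4 genes, while they were apart for 35.1% of all genes. The log2 fold change was 0.11 ± 0.111 (SE) for *Bdnf* and -0.09 ± 0.161 for *Gdnf*. It was -0.15 ± 0.195 for *Gfra1* and 0.26 ± 0.266 for *Sort1*. The 95% intervals allow 0.906 to 1.29 times the DMSO level for *Bdnf*, 0.726 to 1.21 for *Gdnf*, 0.660 to 1.22 for *Gfra1* and 0.785 to 1.82 for *Sort1*. Changes within these intervals are compatible with the data, and the lack of calls with 2 libraries a group is not evidence that the levels were the same. Without the second DMSO library *Sort1* came to -0.11, and without the first to 0.72.

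**Figure D3:**
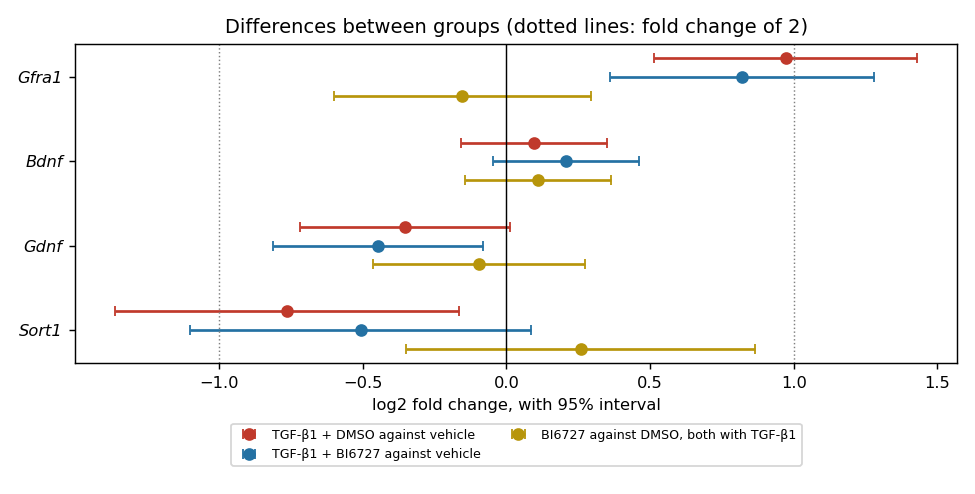
Log2 fold changes of the 4 tested genes in the 3 comparisons, with 95% intervals from the fit of all 6 libraries and dotted lines at a fold change of 2. The intervals of *Gfra1* lie above 0 against vehicle in both comparisons, and those of *Bdnf* include 0 throughout. Against vehicle, those of *Sort1* with DMSO and of *Gdnf* with BI6727 lie below 0. Every interval between BI6727 and DMSO includes 0.

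Around these genes, the larger changes were in their relatives. In the list of the other ligands and receptors, 7 of 17 genes were tested. In both comparisons with vehicle 3 were called higher and 2 lower (71.4%), beside 5.98% and 6.22% of all genes tested. Between BI6727 and DMSO 0 were called, as over all genes by edgeR. The list was written with earlier results of these data known, so the share is a description. *Ntf5* (log2 0.44 ± 0.424 with DMSO, adjusted p = 0.495, edgeR) and *Pspn*, which encodes the GDNF relative persephin (-0.44 ± 0.515, adjusted p = 0.577), had 8 to 76 counts in a library and were not called.

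Among the GDNF family coreceptors, *Gfra2*, which prefers neurturin, fell. It had 204 and 144 counts in vehicle, 12 and 13 with DMSO, and 10 and 19 with BI6727. It fell 14.0-fold with DMSO (log2 -3.81 ± 0.372, adjusted p = 0.000258, edgeR) and 12.3-fold with BI6727 (adjusted p = 0.000268). *Gfra1* was 37.7% and 48.5% of the summed RPKM of the 4 GFRα genes in vehicle, 95.6% and 94.2% with DMSO, and 94.7% and 93.8% with BI6727. *Gfra3* had 0 counts and *Gfra4* had 1 in the 6 libraries. *Gas1*, a GPI-anchored protein related to the GFRα family, fell from 12196 and 10527 counts in vehicle to 452 and 339 with DMSO and 244 and 333 with BI6727. Its log2 fold change with DMSO was -4.86 ± 0.197 (28.9-fold lower, adjusted p = 5.26e-06, edgeR), with 19.9% of its exonic length overlapped by *Gm48488*. *Ncam1* rose 2.23-fold with DMSO (log2 1.16 ± 0.202, adjusted p = 0.00492, edgeR) and 2.68-fold with BI6727 (adjusted p = 0.00175). The first of these calls was lost in 6 of the 14 other fits, with a value as low as 0.81, and the second in the 4 fits that left out a vehicle or a BI6727 library.

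Among the sortilin family, *Sorcs2*, a coreceptor of p75 for precursor neurotrophins, rose while *Sort1* was lower. *Sorcs2* had 94 and 166 counts in vehicle, 820 and 548 with DMSO, and 715 and 782 with BI6727. It rose 5.31-fold with DMSO (log2 2.41 ± 0.269, adjusted p = 0.000514, edgeR) and 5.83-fold with BI6727 (adjusted p = 0.000357). Both calls were lost without the first vehicle library, where the values were 2.13 and 2.27 on the log2 scale. *Sort1* made up 72.0% and 59.0% of the summed RPKM of the 5 genes of the family in vehicle and between 16.0% and 20.3% in the 4 libraries with TGF-β1.

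**Figure D4:**
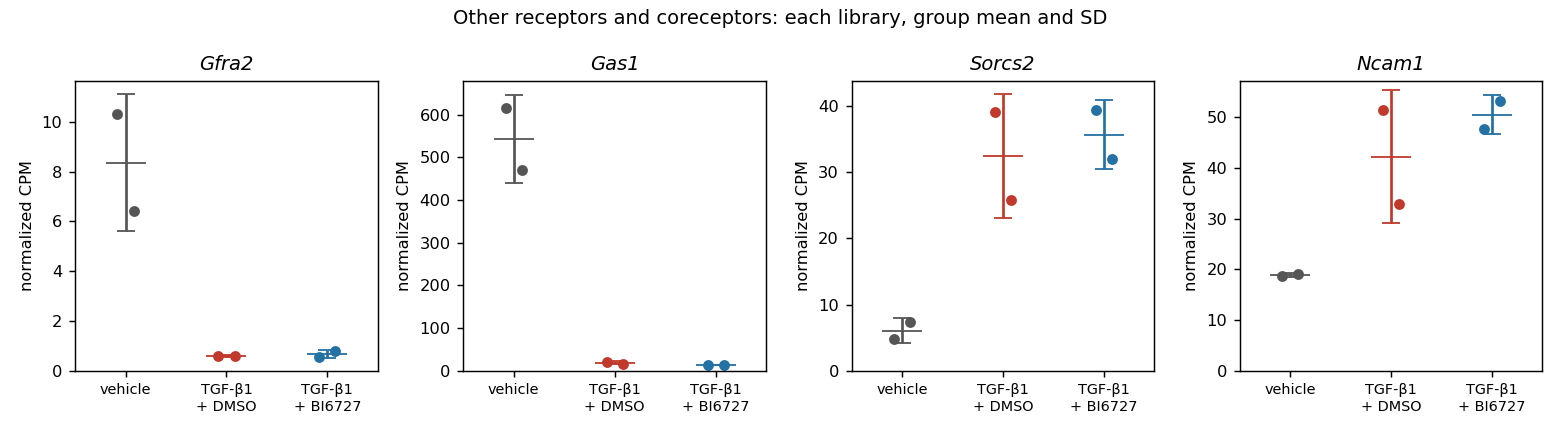
Normalized CPM of *Gfra2*, *Gas1*, *Sorcs2* and *Ncam1*, called genes among the other receptors and coreceptors, in each library (points), with group mean and SD (line and bar, n = 2), on axes that start at 0. *Sorcs2* and *Ncam1* lie higher and *Gfra2* and *Gas1* lower in all 4 libraries with TGF-β1 than in both vehicle libraries.

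Proteases that cut the precursors were mostly below the call rule. Of 14 processing genes, 10 were tested, and *Furin*, the proprotein convertase, was the one called with DMSO (2.19-fold higher, log2 1.13 ± 0.145, adjusted p = 0.00107, edgeR). *Furin* (2.04-fold, adjusted p = 0.00162) and *Mmp9*, a matrix protease (2.77-fold, log2 1.47 ± 0.27, adjusted p = 0.00606), were called higher with BI6727 against vehicle. The call of *Furin* with DMSO was lost in 3 of the 14 other fits, each without 1 library. The calls of both genes with BI6727 were lost in all 4 fits that left out a vehicle or a BI6727 library. *Mmp9* was 1.42-fold higher than vehicle with DMSO (adjusted p = 0.225, edgeR). The tissue plasminogen activator gene *Plat* (log2 0.05, adjusted p = 0.825, edgeR) was not called, and the plasminogen gene *Plg* had 0 counts.

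Of 32 adaptor and effector genes of the TRK and p75 receptors, 26 were tested. *Shc2*, which couples TRK receptors to RAS signalling, had 453 and 413 counts in vehicle, 117 and 117 with DMSO, and 138 and 139 with BI6727. It fell 3.72-fold with DMSO (log2 -1.90 ± 0.207, adjusted p = 0.000451, edgeR) and 3.12-fold with BI6727 (adjusted p = 0.000841). Both calls were lost without the first vehicle library, and the second also without the second BI6727 library. The docking proteins *Frs3* (log2 1.13, adjusted p = 0.00883, edgeR) and *Gab2* (1.16, adjusted p = 0.00325) and the adaptor *Sh2b2* (1.17, adjusted p = 0.000459) were called higher with BI6727 against vehicle. The calls of *Frs3* and *Gab2* were lost in all 4 fits that left out a vehicle or a BI6727 library, and that of *Sh2b2* in 3 of them. With DMSO their values were 0.64, 0.94 and 0.94, under the fold limit. Whether BI6727 and DMSO differed in them was tested directly, and none was called (adjusted p = 0.704, 0.845 and 0.74, edgeR). In all 3 lists together, 43 of 63 genes were tested. Of these, 4 were called higher and 3 lower with DMSO (16.3%), 8 higher and 3 lower with BI6727 against vehicle (25.6%), and 0 between BI6727 and DMSO by edgeR and by DESeq2, with 5 at an unadjusted p under 0.05. The share called with DMSO was 71.4% of the tested ligands and receptors, 10% of the processing genes and 3.85% of the adaptors and effectors. With BI6727 against vehicle it was 71.4%, 20% and 15.4%, in that order. The lists were written with earlier results of these data known, so the shares are a description beside the 5.98% and 6.22% of all genes.

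The genes with the most similar pattern over the 6 libraries were sought for *Gfra1* and *Sort1*, the 2 with the largest differences from vehicle. Likeness was the root mean square difference of centred log2 CPM. For *Gfra1* they were *Frrs1* (0.0883), *Tarbp1* (0.0952) and *Lrig3* (0.0971), and 200 genes lay within 0.2. For *Sort1* they were *Gbf1* (0.047), *Sox5* (0.0528) and *Garem1* (0.0552), and 491 genes lay within 0.2. These genes were selected on the same 6 libraries, so their likeness in any one of them is not a finding.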

How the data were processed

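Total RNA of NIH/3T3 cells was sequenced after removal of ribosomal RNA, with single-end reads. The authors mapped the reads to mm10 with Subjunc of Subread 1.6.4, used featureCounts to count them on genes of Gencode M20, and deposited these raw counts. Library totals were 18362378 to 24452153. Groups and replicate numbers come from the sample labels. Symbols were matched by Ensembl identifier. Positions are those of mm10 in the deposited table, and sequences are from RefSeq, which held promoters of 6 of the 8 genes.

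From the deposited counts, edgeR 4.0.16 in R 4.3.3 was fitted to all 6 libraries at once (filterByExpr, TMM, quasi-likelihood, 3 residual degrees of freedom). Genes were called at an adjusted p below 0.01 and a fold change above 2. The filter of the study's methods (10 CPM or more in over 3 samples) was replaced because it removes *Sort1*, and is an alternative. Standard errors are the log2 fold change divided by the square root of F. Normalized CPM use the TMM-scaled totals, and log2 CPM for the likeness a prior count of 1. Exact permutation of 2 against 2 libraries cannot give p under 0.333, so none was run. Floors are 3 counts per library.

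The 8 genes, the lists and the tests were chosen with earlier results of these data known. The text names all 8, every listed pathway gene called in any comparison, the other listed ligands and receptors with at least 1 CPM in 2 libraries, the TGF-β1 response genes, and the 3 genes nearest to each of 2 of the 8. *Ret*, *Gfra3*, *Gfra4*, *Plat* and *Plg* were named after their values were seen. Some genes that the rule selects are not reported here, and the counts over lists include them. Motifs were searched on both strands of the RefSeq promoters. The alternatives were DESeq2 1.42.0, its size factors, 3 other filters, removal of each library's length trend (lowess, span 0.3), fits of just the compared groups, a block for the replicate number, other thresholds, and fits that leave out each library in turn.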

Additional observations from a re-analysis of the deposited data

How the results depend on the processing

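The directions of *Bdnf*, *Gdnf*, *Gfra1* and *Sort1* against vehicle were the same in all other fits. Between BI6727 and DMSO, *Gdnf*, *Gfra1* and *Sort1* changed sign in some fits without 1 library. With the length trend removed 1 of the 4 genes was called between DMSO and vehicle, *Gfra1*. Leaving out 1 library gave 0 to 1 of the 4 called there, 3 to 8 pathway genes between DMSO and vehicle (7 with all libraries), 0 to 1 between BI6727 and DMSO, and 3 to 11 between BI6727 and vehicle (11 with all libraries). The 1 gene between BI6727 and DMSO was *Mmp9*, without the first DMSO library. These fits leave 1 library in a group, which is taken to vary like the others. The filter of the study's methods gave 7 pathway genes between BI6727 and vehicle, as *Mmp9*, *Frs3*, *Gfra2* and *Shc2* were not tested. With no minimum on the fold change 13 pathway genes were called between DMSO and vehicle. *Gas1* was called against vehicle in all 14 other fits and *Gfra2* in 13, all that tested it.

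Same-numbered replicates deviated together with r of -0.059 to -0.0079 across genes, so the numbers were not taken to pair the libraries. With the replicate block 0 of the 4 genes were called in each comparison, and 7, 0 and 9 pathway genes (DMSO against vehicle, BI6727 against DMSO, BI6727 against vehicle), with *Mmp9* (adjusted p = 0.0116, edgeR) and *Frs3* (0.0143) lost in the last. Over all genes the calls between DMSO and vehicle were 402 higher and 472 lower, 244 and 241 with the filter of the study's methods, 676 and 745 with no fold minimum, 148 and 162 without the first vehicle library, 170 and 225 without the second, and 587 and 848 without the first DMSO library. Between BI6727 and vehicle they were 366 and 542, 223 and 282 with that filter, 669 and 862 with no fold minimum, and as few as 145 and 210 without the first vehicle library. Between BI6727 and DMSO the calls over all genes were 6 higher and 41 lower with no filter, 0 and 11 with the length trend removed, 67 and 31 without the first DMSO library, and 3 and 35 without the second. The cause of these differences was not tested. Depth limits statements on *Ntf3*, *Ngfr*, *Ntrk2* and *Ntrk3* to the floors given.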

Other observations

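*Adam17*, which encodes a protease that sheds the p75 receptor, had a log2 fold change of -0.82 with DMSO against vehicle (adjusted p = 0.0063, edgeR's quasi-likelihood test) and -0.73 with BI6727 (adjusted p = 0.00982). *Sqstm1*, an adaptor of p75 and TRK receptors, came to 0.59 (adjusted p = 0.00483, edgeR) and 0.76 (adjusted p = 0.00131). The TRK docking gene *Frs2* came to -0.91 with DMSO (adjusted p = 0.00301, edgeR) and -0.68 with BI6727 (adjusted p = 0.0111). All lay under the 2-fold limit of a call, and these genes were chosen after their values were seen.

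In every library more genes had 2 counts than 1, with 1495 to 1692 genes at 2 and 1032 to 1173 at 1, while counts over 100 were even in 49.8% to 50.4% of genes.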
